A study of Drosophila melanogaster with 8 samples.

Results

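The genes described here are 38 genes of the early Drosophila melanogaster embryo that were chosen by their wild-type expression: an FPKM of at least 10 at 0–0.5 h after egg laying, a value at 1–2 h at least 1.5 times higher, and a value at 3–4 h at most 0.5 times that at 1–2 h. FPKM is a fragment number scaled by how long the transcript is and by how many fragments its library held. The locus also had to span at least 300 bases, and the estimate had to be marked as usable in all 8 tables. Of 15598 listed genes, 14468 met the last 2 conditions, and 4851 of these reached an FPKM of 10 in wild-type embryos at 0–0.5 h and are called eligible here. Among the eligible genes 100 met the limit for the rise (2.06%) and 38 met both the rise and the fall (0.783%), while 62 rose and did not fall enough. The set is called the early-rise genes.

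The tables hold poly(A)-selected mRNA-seq of pooled whole embryos, collected at 0–0.5, 2–3 and 4–5 h from NSUN2-/- mothers (maternal NSUN2 KO) and at 0–0.5, 1–2, 2–3, 3–4 and 4–5 h from w1118 mothers (wild type, WT). All mothers were crossed with w1118 males, so the KO embryos come from mothers without NSUN2, and since the gene is on the X only the female KO embryos receive a paternal copy. NSUN2 is an RNA methyltransferase that makes 5-methylcytosine. There was 1 table for each collection, so differences could not be set against a spread between replicates and were not tested, and each value carries only the interval that Cufflinks computed within the table. For the early-rise genes the median half-width of that interval was between 4.53% and 18.4% of the value, depending on the table. Nsun2 itself was lower in KO than in WT embryos at the 3 shared ages, with 0.128 against 2.61 FPKM at 0–0.5 h, 0.213 against 2.71 at 2–3 h and 1.18 against 6.59 at 4–5 h. Yolk and sperm markers were near 0 in every table (summed FPKM of at most 0.426 and 0.283). Follicle cell and eggshell markers summed to 11.8 in KO at 2–3 h, where 1 of them had an FPKM of at least 10. In the other tables they summed to at most 6.74, in WT at 3–4 h.

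The first hours of fly development run on mRNA that the mother put into the egg. Zygotic transcription begins with a small first wave of mostly short genes, many of them without introns, that act in the blastoderm, and maternal mRNAs are cleared around the mid-blastula transition, when the nuclei are enclosed by membranes (cellularisation). Some maternal mRNAs also gain longer poly(A) tails at egg activation. Since the libraries were made by oligo(dT) capture, a longer tail and more molecules of an mRNA cannot be told apart in these tables, and a whole-embryo value does not separate cells with the mRNA from the amount in each.

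The set had been proposed as maternal transcripts. The lists do not settle the origin of the set, since a list gene counts here by the WT ratio that the rule used and 10 of the 38 genes are on a list by symbol, so they are given as a description and the set is called by its rule. On a list of 68 early zygotic genes, 19 were eligible, 17 of these met the limit for the rise, and 9 are early-rise genes: halo, Z600, zen, zen2, nullo, sc, bnk, scw and Bro. The eligible list genes that did not meet it were amos, with a WT ratio of 1–2 h to 0–0.5 h of 1.35, and E2f2, with 0.622. Over all eligible genes 2.06% met the limit for the rise. None of 15 eligible maternal mRNAs known for activation of their translation met it. Their ratios ran from 0.373 to 1.44 with a median of 0.823, against 0.864 over all eligible genes. The highest of these was Toll (Tl), with 149.7, 177 and 128 FPKM in KO embryos and 138, 198, 136, 36.7 and 40.8 FPKM in WT embryos, all in order of age. The anterior determinant bicoid (bcd) was at 40.2, 57.6 and 27.7 FPKM in KO embryos and at 33.3, 23.5, 12.4, 6.65 and 3.57 FPKM in WT embryos, and did not rise in WT. Of 31 eligible genes for poly(A) addition, poly(A) removal and mRNA repression, hrg alone is an early-rise gene. Of the lists for ribosomal proteins (85 eligible genes), egg activation (13), maternal transcription activators (24) and germ plasm (16), none holds one. Early-rise genes are 0.783% of all eligible genes, so lists of this size are too small for their absence to be read. The summed FPKM of the 68 early zygotic genes was 425 in KO and 710 in WT embryos at 0–0.5 h, and their part in the values of the early-rise genes at that age was not tested.

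**Figure D1:**
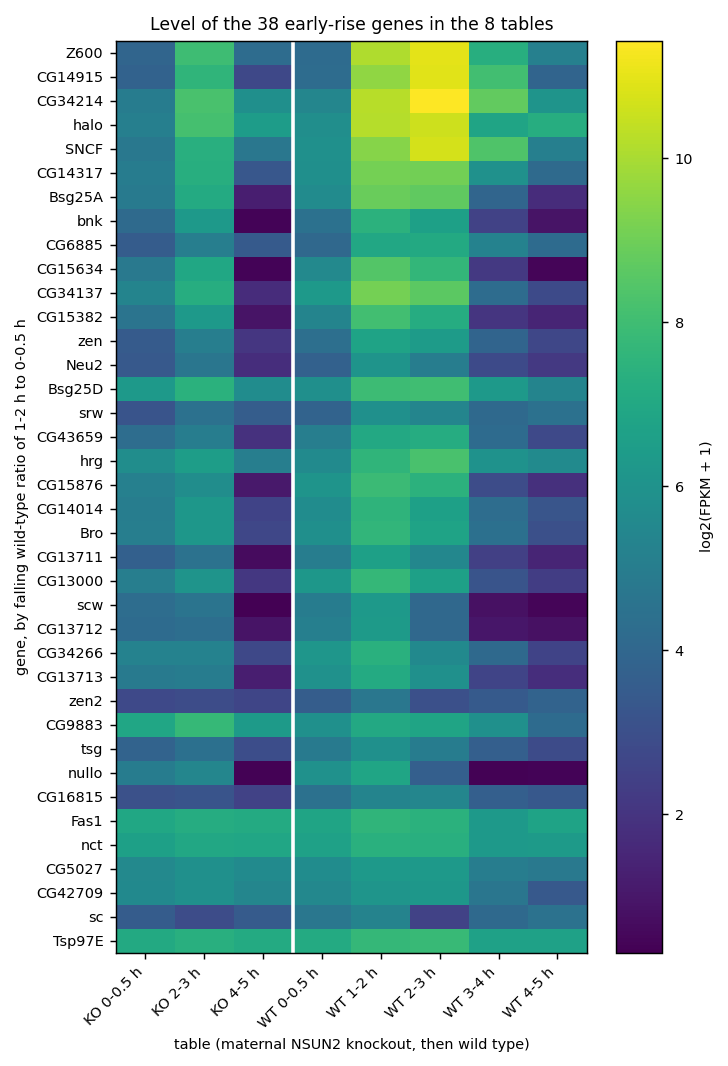
Level of the 38 early-rise genes, as log2(FPKM + 1), in the 3 KO and 5 WT tables, 1 table a column, with genes ordered by their WT ratio of 1–2 h to 0–0.5 h. Z600, CG14915, CG34214, halo and SNCF stand out in WT at 1–2 and 2–3 h, and most genes are dark at 4–5 h in both genotypes.

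The wild-type values at 0–0.5, 1–2 and 3–4 h chose the genes and are given as a description. The ratio of 1–2 h to 0–0.5 h ran from 1.51 to 63.6 with a median of 3.59. It was at least 10 in 5 genes, at least 3 in 22 and under 2 in 8. Their median FPKM over the 5 WT ages, in order, was 47.3, 170.1, 109, 16.8 and 8.94, and the genes held between 0.0953% and 1.39% of the summed FPKM of a WT table. WT expression was highest at 1–2 h in 25 genes and at 2–3 h in 13. At 4–5 h, 21 genes were below an FPKM of 10.

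The FPKM values of the 3 KO tables played no part in the choice, only the mark that each estimate was usable, and they show most of the same genes going up and then down. A gene is called changed here when it differed by at least 1.5-fold on the log2(FPKM + 1) scale and the Cufflinks intervals of its values lay apart. Between 0–0.5 and 2–3 h in KO embryos 24 of 38 genes were called higher, against 7.63% of the eligible genes, and 1 was called lower, against 27.0%. The median difference was 0.95 in log2 units, against 0.01 over the eligible genes. The value at 2–3 h was above that at 0–0.5 h in 37 genes, against 2479 of the 4851 eligible genes, and sc was the exception. In 32 of the 37 genes the intervals lay apart, which was not counted over the eligible genes. The rise was greatest for Z600, CG14915, CG34214, halo and SNCF, with log2 differences of 4.03, 3.77, 3.27, 3.04 and 2.57, and these are also the genes with the highest WT ratio. The smallest differences were those of sc (-0.67), CG34266 (0.00), CG13713 (0.10), CG13712 (0.12) and zen2 (0.15). Of the 62 genes that rose and did not fall in WT, 36 were called higher over the same KO interval and 1 lower.

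**Figure D2:**
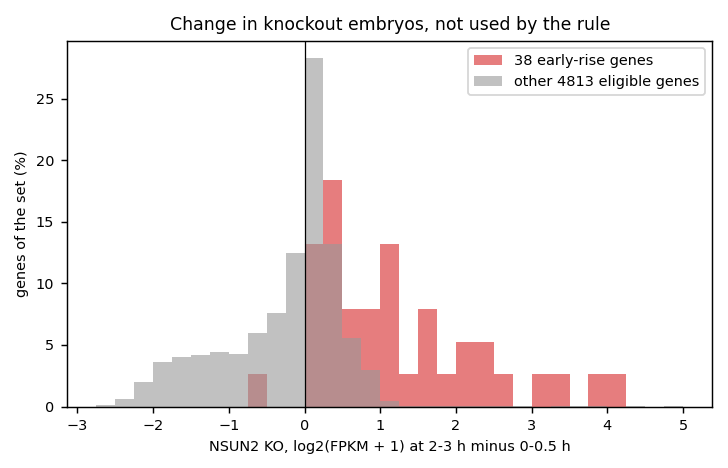
Distribution of the change from 0–0.5 to 2–3 h in KO embryos, as the difference of log2(FPKM + 1), for the 38 early-rise genes (red) and the other 4813 eligible genes (grey), each as a percentage of its set. The early-rise genes lie mostly to the right of 0 with a median of 0.95, and the tail above 2 is made of halo, Z600 and other short genes.

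The later fall was seen in KO embryos as well. Between 2–3 and 4–5 h in KO, 31 of 38 genes were called lower, against 30.9% of the eligible genes, and 1 was called higher, against 10.9%, with a median log2 difference of -2.95 against -0.26. In WT over the same ages 36 were called lower, against 28.9%, and 2 higher, against 34.1%, with a median of -3.38 against 0.02. The WT fall spans the 3–4 h table that the rule used, so its direction was largely set by the choice, while the KO fall was not. Among the 62 genes that rose without the fall, 3 were called lower and 39 higher in KO. Among the early-rise genes sc was the 1 called higher in KO, and the 6 that were not called were zen2, Fas1, nct, Tsp97E, CG5027 and CG42709. In KO embryos 24 early-rise genes met both a rise of 1.5 times and a fall to 0.5, of 50 eligible genes that did.

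In KO embryos of 2–3 h the early-rise genes were mostly below WT of that age. They were already below WT at 0–0.5 h, with a median log2 difference of -0.72 against 0.01 over the eligible genes. The rule also asked for a raised WT value at 1–2 h, the collection before. How far these 2 points set the difference at 2–3 h was not tested. At 2–3 h 20 of 38 genes were called lower in KO, against 12.9% of the eligible genes, and 2 higher, against 45.4%, with a median log2 difference of -0.68 against 0.44 over the eligible genes. Of the 62 genes that rose and did not fall in WT, 50 were called lower and 2 higher, with a median of -1.64. The genes lowest against WT were CG14915 at 0.0957 times WT, SNCF at 0.0973, CG34214 at 0.109, Z600 at 0.122 and halo at 0.187. The genes highest against WT were nullo, CG9883, scw, sc and CG13712, and of these nullo and CG9883 were called. The KO value at 2–3 h lay between the WT values at 0–0.5 and 1–2 h in 24 genes, below WT at 0–0.5 h in 13 and above WT at 1–2 h in 1. The rule used both of these WT values and set them apart, so these counts are given as a description only. The comparison of KO with WT at 2–3 h shares its tables with the KO and WT changes given above. It also moved with the scaling of the tables: median-of-ratios shifted the median of the eligible genes by -0.45, equal totals by 0.28 and quantile normalization by -0.41 on the log2 scale, and the median of the early-rise genes was then -1.14, -0.39 and -0.98.

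At 4–5 h 13 genes were called lower in KO, against 16.3% of the eligible genes, and 3 higher, against 27.3%. The median log2 difference was -0.48, against 0.08 over the eligible genes. It was smaller in size than at 2–3 h, but that order depended on the scaling. With equal totals it turned, with medians of -0.39 at 2–3 h and -0.48 at 4–5 h. With a pseudocount of 0.1 the order was kept but the medians were close, -0.68 at 2–3 h and -0.63 at 4–5 h. The 3 higher genes were CG9883 at 4.67 times WT, CG42709 at 4.31 and CG5027 at 1.81. Of the 62 genes that rose and did not fall 36 were called lower and 1 higher. With a fold of 2 in place of 1.5 the number of early-rise genes called lower was 3.

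**Figure D3:**
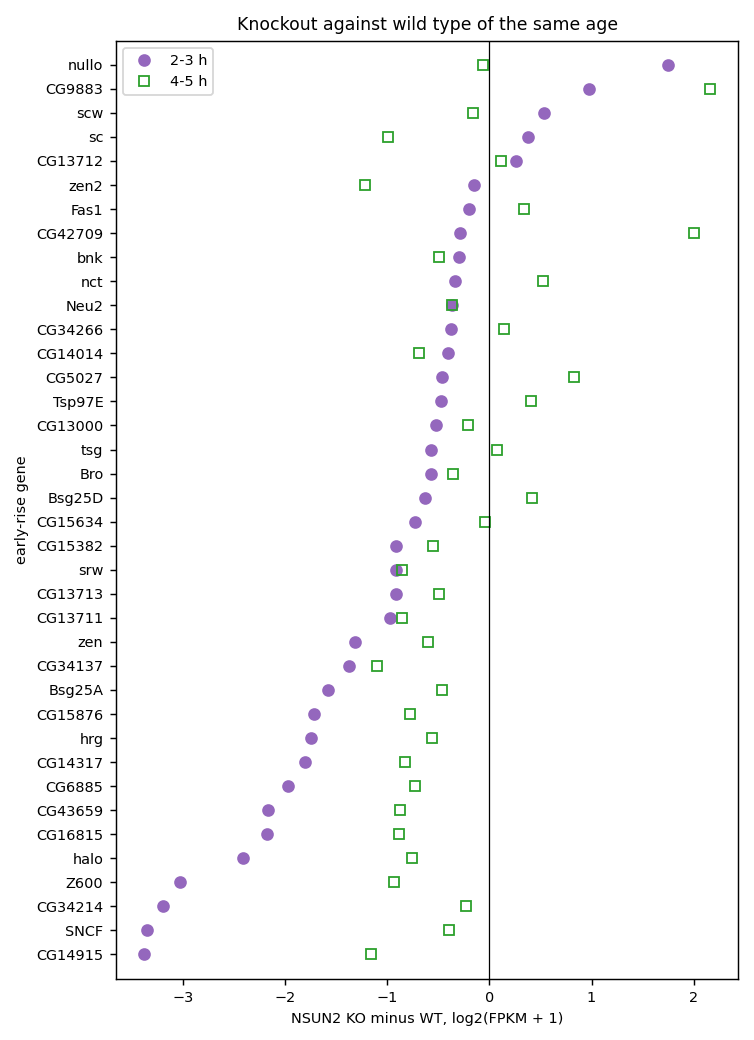
KO minus WT in log2(FPKM + 1) for each early-rise gene at 2–3 h (filled circles) and 4–5 h (open squares), ordered by the value at 2–3 h. At 2–3 h 33 genes lie left of 0, against 1677 of the 4851 eligible genes, with CG14915 lowest at -3.38 and nullo highest at 1.75. CG9883 and CG42709 are the highest at 4–5 h.

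The values at 0–0.5 h are given as a description, because the rule used the WT table of that age. FPKM was lower in KO for 33 of 38 genes, and 24 were called lower, against 4.10% of the eligible genes, and 1 higher, against 16.6%. The median ratio of KO to WT was 0.595, against 1.01 over the eligible genes. Nothing is read from these counts. The 1 gene called higher was CG9883. In KO at 0–0.5 h 34 of the 38 genes had an FPKM of at least 10, against 4765 of the 4851 eligible genes.

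The genes are now taken by role, each with its FPKM in order of age, over the 3 KO and then the 5 WT collections. The subunits of the ELBA complex are all in the set. ELBA is an insulator-binding complex of the early embryo, made of the BEN-domain proteins Elba1 (Bsg25A) and Elba2 (CG9883) and of Elba3 (CG15634), which joins them. Bsg25A, on 2L from 4683050 to 4684459 of BDGP5, was at 28.4, 139 and 1.39 FPKM in KO embryos, against 49.6, 476, 419, 14.6 and 2.29 FPKM in WT embryos. CG15634, on 2L from 4687513 to 4688956, was at 27.3, 121 and 0.321 FPKM in KO embryos, against 45.5, 350.0, 202, 3.45 and 0.359 FPKM in WT embryos. These neighbours, within 5907 bases of 2L, had like courses and were both lower in KO at 2–3 h, where Bsg25A had intervals of 135 to 143 in KO and 411 to 427 in WT.

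The Elba2 gene ran otherwise. CG9883, on 2L from 2577671 to 2579180, was at 118, 216 and 82.4 FPKM in KO embryos, against 58.5, 130.2, 109, 58.9 and 17.6 FPKM in WT embryos, so KO was higher at each of the 3 shared ages. At 2–3 h its intervals were 211 to 220.3 in KO and 106 to 113 in WT, and it was the 1 early-rise gene whose KO value at 2–3 h exceeded WT at 1–2 h. The BEN-domain gene insv lies beside it on 2L from 2575276 to 2577006, and rose without meeting the fall. insv was at 112, 175 and 149 FPKM in KO embryos, against 97.3, 151, 240.5, 190.1 and 127 FPKM in WT embryos, with WT the higher at 2–3 h, unlike CG9883. For all 3 ELBA subunits the KO values at 2–3 h were above those at 0–0.5 h with separate intervals.

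**Figure D4:**
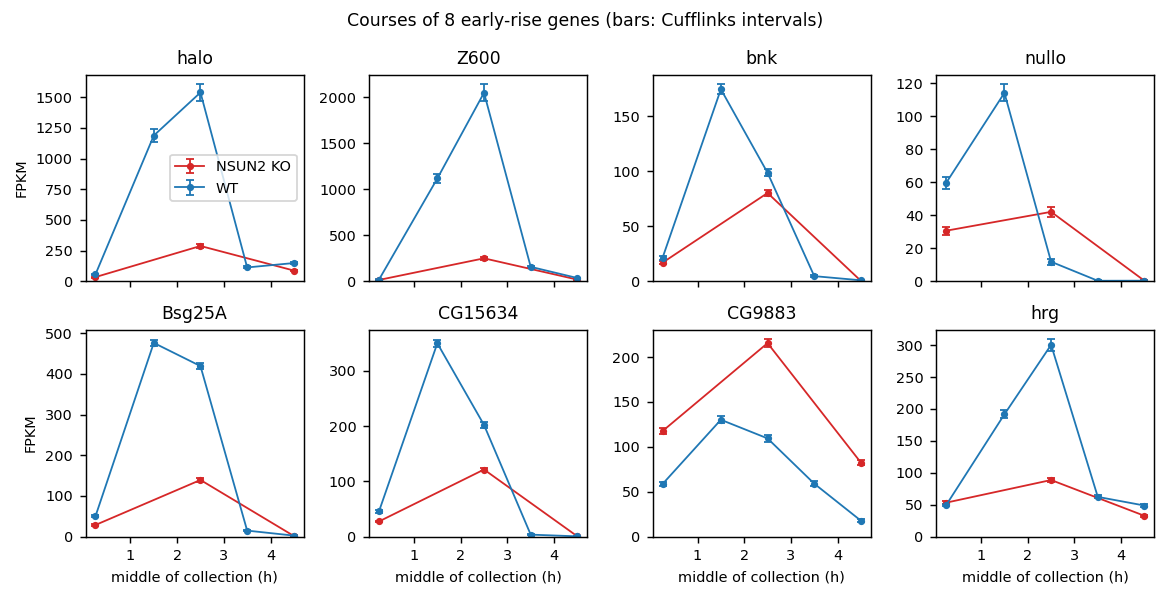
FPKM of 8 early-rise genes against the middle of the collection in hours, in KO (red, 3 tables) and WT (blue, 5 tables), with Cufflinks intervals as bars. KO lies far below WT at 2–3 h for halo, Z600, Bsg25A and hrg, and above WT for nullo at 2–3 h and for CG9883 at every shared age.

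Genes of cellularisation and of the blastoderm cell cycle form the next group. Z600 (frühstart), an inhibitor of mitosis in the blastoderm, had the largest WT ratio of all eligible genes, 63.6. Z600 was at 14.3, 249 and 17.9 FPKM in KO embryos, against 17.5, 1116, 2047, 157 and 35.2 FPKM in WT embryos, with intervals at 2–3 h of 234 to 264 and 1955 to 2139. bnk (bottleneck), which holds back contraction of the actin network at cellularisation, was at 16.9, 80.2 and 0.336 FPKM in KO embryos, against 21.2, 174, 98.5, 4.66 and 0.880 FPKM in WT embryos. Its KO value at 2–3 h was within 1.5-fold of WT of that age (log2 difference -0.29), unlike that of Z600.

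nullo, needed for stable furrows at cellularisation, was at 30.6, 42.0 and 0.285 FPKM in KO embryos, against 59.5, 114, 11.8, 0.307 and 0.346 FPKM in WT embryos. It had already dropped by 2–3 h in WT, while KO was higher at 2–3 h than at 0–0.5 h, so KO exceeded WT at 2–3 h by 1.75 log2 units, the largest such difference of the set. CG34137 (dunk), which acts on myosin at cellularisation, was at 39.5, 153 and 2.27 FPKM in KO embryos, against 79.9, 557, 396, 17.8 and 6.03 FPKM in WT embryos. Bsg25D, the fly ninein gene (Nin), which codes for a centrosomal protein, was at 77.1, 168 and 52.5 FPKM in KO embryos, against 56.6, 246, 261, 78.6 and 38.9 FPKM in WT embryos. Its KO value at 0–0.5 h was above that of WT, as for CG9883, and its fall was shallower than that of the other genes in this group. On the cellularisation list 20 genes were eligible and 2 of them, nullo and bnk, are early-rise genes. slam, a cellularisation gene, failed the rule only on its WT level of 6.83 FPKM at 0–0.5 h.

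Patterning genes were expressed at lower levels. The BMP ligand scw (screw) was at 18.3, 23.1 and 0.242 FPKM in KO embryos, against 30.5, 77.4, 15.7, 0.730 and 0.391 FPKM in WT embryos. The BMP-binding gene tsg (twisted gastrulation) was at 13.6, 20.5 and 6.63 FPKM in KO embryos, against 27.6, 57.8, 30.8, 11.7 and 6.23 FPKM in WT embryos. Both were highest at 1–2 h in WT, scw fell faster, and KO of 2–3 h was below WT of 1–2 h for both.

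zen (zerknüllt), a homeobox gene of the dorsal side that is needed for the amnioserosa, was at 10.3, 32.9 and 3.16 FPKM in KO embryos, against 19.6, 109, 83.2, 13.9 and 5.32 FPKM in WT embryos. Its paralogue zen2, within the same 11063 bases of 3R, was at 5.71, 6.45 and 5.20 FPKM in KO embryos, against 11.2, 25.2, 7.28, 9.87 and 13.5 FPKM in WT embryos. zen was called higher in KO, with intervals of 30.9 to 34.8 at 2–3 h and 9.14 to 11.4 at 0–0.5 h, whereas those of zen2 overlapped, 5.36 to 7.53 and 4.68 to 6.75. zen2 also went up again after 2–3 h in WT, as its WT value at 4–5 h shows. srw (shrew), another gene of dorsal patterning, was at 8.13, 21.2 and 11.1 FPKM in KO embryos, against 13.7, 58.6, 40.7, 16.3 and 20.9 FPKM in WT embryos.

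sc (scute), a proneural bHLH gene that also serves in the early count of X chromosomes, was at 10.9, 6.49 and 10.3 FPKM in KO embryos, against 25.1, 38.0, 4.76, 16.4 and 21.4 FPKM in WT embryos. It was the 1 gene called lower from 0–0.5 to 2–3 h in KO and the 1 called higher from 2–3 to 4–5 h, so KO and WT both had a low point at 2–3 h. The X-linked count gene sisA was eligible and rose without the fall. Bro (Brother), a partner of Runt transcription factors, was at 32.6, 72.7 and 5.38 FPKM in KO embryos, against 57.1, 197, 109, 20.3 and 7.19 FPKM in WT embryos. Bro was highest at 1–2 h in WT and at 2–3 h in KO. KO embryos were not collected at 1–2 or 3–4 h, so the age and height of a KO peak are not known.

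The early-rise genes with the highest FPKM in WT at 1–2 and 2–3 h were short ones. halo, which steers lipid droplet transport, was at 34.0, 288 and 87.4 FPKM in KO embryos, against 55.4, 1188, 1539.5, 113 and 149 FPKM in WT embryos. CG34214 was at 30.3, 302 and 56.4 FPKM in KO embryos, against 42.0, 1197, 2768, 439 and 66.5 FPKM in WT embryos. CG14915 was at 13.0, 189.9 and 5.62 FPKM in KO embryos, against 17.7, 769, 1984, 269 and 13.8 FPKM in WT embryos. All 3 stayed far below WT at 2–3 h in KO, although their KO ratios of 2–3 h to 0–0.5 h were 8.46, 9.95 and 14.6.

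SNCF was at 26.4, 162 and 25.1 FPKM in KO embryos, against 58.8, 689, 1664, 333 and 33.2 FPKM in WT embryos. CG14317 (bard) was at 31.0, 154 and 8.96 FPKM in KO embryos, against 56.3, 556, 540.2, 61.1 and 16.7 FPKM in WT embryos. SNCF kept rising to 2–3 h in WT while CG14317 was level between 1–2 and 2–3 h, with intervals of 531 to 549 at 2–3 h and 547 to 565 at 1–2 h. CG16815 was among the less abundant, with 7.40, 8.33 and 4.64 FPKM in KO embryos, against 20.7, 39.3, 41.1, 11.8 and 9.44 FPKM in WT embryos. The other genes with a CG number or few known features (CG15382, CG6885, CG43659, CG14014, CG13000 and Neu2) had KO values at 2–3 h from 24.3 to 76.1 FPKM, and WT values at 1–2 h from 66.3 to 270.1 FPKM.

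On the left arm of chromosome 3, 5 early-rise genes lay in 80877 bases (3L from 4677832 to 4758708 of BDGP5): CG34266, CG15876, CG13713, CG13712 and CG13711. CG15876 was at 34.8, 52.8 and 1.10 FPKM in KO embryos, against 66.0, 238, 176, 6.51 and 2.62 FPKM in WT embryos. CG34266 was at 36.4, 36.5 and 5.57 FPKM in KO embryos, against 71.0, 165, 47.6, 16.3 and 4.93 FPKM in WT embryos. CG13713 was at 28.8, 30.9 and 1.40 FPKM in KO embryos, against 60.8, 138, 59.3, 5.10 and 2.38 FPKM in WT embryos. CG15876 was higher at 2–3 than at 0–0.5 h in KO, while the KO values of CG34266 at these ages were nearly equal, with intervals of 31.8 to 41.2 and 31.5 to 41.2.

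CG13712 was at 17.4, 19.0 and 0.885 FPKM in KO embryos, against 33.9, 81.6, 15.7, 0.980 and 0.737 FPKM in WT embryos, and CG13711 was at 12.2, 21.6 and 0.537 FPKM in KO embryos, against 31.5, 99.4, 43.2, 4.42 and 1.78 FPKM in WT embryos. All 5 peaked at 1–2 h in WT and had 1 exon. The stretch holds 13 listed genes, and of the other genes in it CG12493 was the highest, with 5.18 FPKM in KO and its top value in WT of 4–5 h, while the long genes Gef64C and axo, which overlap the early-rise genes, stayed below 1 FPKM. CG34266, CG13713 and CG13712 are among the 5 genes with the smallest KO changes from 0–0.5 to 2–3 h.

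hrg (hiiragi), a poly(A) polymerase that adds tails to mRNA in the nucleus, was at 53.1, 88.6 and 32.5 FPKM in KO embryos, against 49.0, 192, 301, 62.2 and 48.6 FPKM in WT embryos. KO and WT were close at 0–0.5 h, with intervals of 51.2 to 55.0 and 47.2 to 50.9, and WT was far higher at 2–3 h, with 85.4 to 91.8 in KO and 291 to 310.2 in WT. In WT hrg was back near its first value at 4–5 h.

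A last group is made of 5 longer genes, 4 of them with annotated introns, several of which code for membrane proteins, and none of them was called changed in KO over either interval. Fas1 (fasciclin 1), a cell adhesion protein, was at 121, 148 and 138 FPKM in KO embryos, against 112, 191, 169.7, 78.7 and 109 FPKM in WT embryos. nct (nicastrin), a subunit of gamma-secretase, was at 98.6, 126 and 117 FPKM in KO embryos, against 101, 166, 159, 76.2 and 81.0 FPKM in WT embryos. The tetraspanin gene Tsp97E was at 135, 162 and 136 FPKM in KO embryos, against 137, 207, 225, 102 and 102 FPKM in WT embryos. For these genes the KO values at 2–3 h were within 1.5-fold of those at 0–0.5 and at 4–5 h, and KO at 4–5 h was above WT.

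CG5027 (Tmx3) was at 45.4, 57.7 and 49.2 FPKM in KO embryos, against 51.0, 79.6, 80.1, 31.3 and 27.2 FPKM in WT embryos. CG42709 was at 47.8, 58.2 and 42.1 FPKM in KO embryos, against 44.8, 67.9, 71.5, 25.0 and 9.77 FPKM in WT embryos. At 4–5 h CG42709 was 4.31 times WT in KO, with intervals of 40.0 to 44.1 in KO and 8.73 to 10.8 in WT. In WT, CG42709 fell by 2.75 log2 units from 2–3 to 4–5 h, the largest fall of this group.

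The early-rise genes share features of structure that the rule did not use apart from the minimum span. In the Ensembl annotation of build BDGP6, matched by gene ID for 37 of 38 genes (97.4%), 25 had no intron in any annotated transcript, 67.6%, against 9.08% of the other eligible genes and 35.6% of the 62 genes that rose and did not fall. The median span in the tables was 1055 bases, against 2289 bases for the other eligible genes, and 78.9% spanned under 2 kb, against 44.2%. The median of the longest coding sequence was 738 bases, against 1167, and that of the longest 3′ UTR was 118 bases, against 287. The 62 genes that rose and did not fall had a median span of 1578 bases, with 58.1% under 2 kb. Their median longest coding sequence, 654 bases, was shorter than that of the early-rise genes, and their median longest 3′ UTR was 330.5 bases. All 37 annotated early-rise genes code for protein.

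The later KO fall can be set out by introns. The KO ratio of 4–5 h to 2–3 h had a median of 0.0661 (0.00264 to 1.58) in the 25 genes without introns and 0.339 (0.00996 to 0.924) in the 12 with introns, and the ranges overlap widely. From 2–3 to 4–5 h in KO 24 of the 25 and 7 of the 12 were called lower. By chromosome 13 genes lay on 3L, 11 on 2L, 7 on 3R, 4 on X and 3 on 2R. On 3L this is 34.2% of the genes, against 20.3% of the eligible genes, and 5 of the 13 are the neighbours described above.

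**Figure D5:**
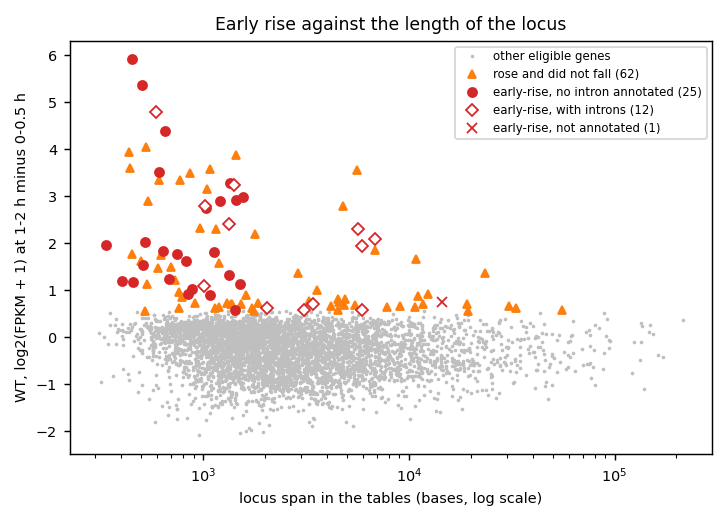
Change from 0–0.5 to 1–2 h in WT, as the difference of log2(FPKM + 1), against the span of the locus in bases on a log scale, for all 4851 eligible genes. The early-rise genes without an annotated intron (filled circles, 25) all span under 2 kb, and those with introns (diamonds, 12) run to longer loci.

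Near the limits of the rule, zen2 and Neu2 had the lowest WT values at 0–0.5 h, 11.2 and 12.5 FPKM, and CG43725 and slam, at 7.86 and 6.83, were just below. Tsp97E and sc had the smallest ratio for the rise, both 1.51, and CG42354 and Bsg, both at 1.48, were just outside. For the fall Tsp97E and SNCF, at 0.491 and 0.484, were just inside, and NUCB1 and PMCA, at 0.528 and 0.594, were just outside. The locus of 19 early-rise genes overlapped another listed gene. Overlaps were not counted for the other eligible genes, so whether this is a usual share is not known. The mapping was strand-specific, and how reads in such overlaps were divided was not tested.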

How the data were processed

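The authors removed adapters with cutadapt 1.13 after bcl2fastq 2.17, per the labels, mapped read pairs strand-specifically with TopHat2 to BDGP5, and deposited the FPKM that Cufflinks computed, with the bounds of its interval. The tables hold no fragment counts, so the depth is unknown. The methods say that FPKM of replicates were averaged, and whether a table holds 1 library or an average is not given in the sources used here. The spike-in RNAs that were added are not listed in the tables, so scaling to them was not run.

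Genes were aligned between the 8 tables by gene ID. Differences are of log2(FPKM + 1), computed here from the deposited FPKM with a pseudocount of 1, which understates changes of low values. A call needed 1.5-fold and separate intervals. Early-rise genes were set beside all 4851 eligible genes. The intervals cover uncertainty within a table only. Introns, transcript lengths and current symbols came from the BDGP6 annotation by gene ID, and coordinates from the tables (BDGP5, counted from 1).

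The members, gene lists and comparisons were chosen with earlier results of these data known. The text names genes by rules on the WT ratio and level, the KO change, KO minus WT, the lists and the limits, and gives the other members because the set is small. Alternatives were other limits, pseudocounts, folds and scalings. Median-of-ratios, equal totals and quantile normalization were tried for scaling. NSUN6 is not reported here. Python 3.11.15, numpy 2.4.6, pandas 2.3.3 and matplotlib 3.10.9 were used, and the steps were tested on simulated data.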

Additional observations from a re-analysis of the deposited data

Results flagged for a closer look

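For 6 early-rise genes the change from 0–0.5 to 2–3 h had opposite signs in the genotypes, in log2 units. It was 0.45 in KO and -2.24 in WT for nullo, 0.32 and -0.92 for scw, 0.12 and -1.06 for CG13712, 0.15 and -0.56 for zen2, 0.10 and -0.04 for CG13713, and 0.00 (0.00439) and -0.57 for CG34266. The KO intervals at these ages lay apart for nullo and scw only, and overlapped for the other genes. For CG13713 the WT intervals overlapped as well. The rule used the WT values at 0–0.5 h. For zen2 the change from 2–3 to 4–5 h was -0.27 in KO, with overlapping intervals, and 0.80 in WT. With 1 table for each collection, the difference between the genotypes was not tested.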

How the results depend on the processing

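The early-rise set depended on its limits: 38 genes became 85 with the lower limit tried for the rise, 22 with a fall to 0.25, and 80 when the tables were scaled by median-of-ratios before the rule, which also brought in Tl. The set drawn again after that scaling had medians of 0.45 for the early KO change, -0.45 for the late KO change, -2.54 for the late WT change, -0.84 for KO minus WT at 2–3 h and 0.29 at 4–5 h, where the sign turned. With the rule applied to the bounds of the intervals these were 1.12, -3.47, -3.66 and -0.91 for the first 4. With the same genes, quantile normalization gave 1.23 for the early KO change, -3.98 for the late WT change and -0.98 for KO minus WT at 2–3 h. Median-of-ratios gave -3.80 and -1.14 for the last 2, and equal totals gave -0.39 for KO minus WT at 2–3 h. An FPKM minimum of 20 gave 0.77 for the early KO change. The late changes moved with the pseudocount, to -3.30 in KO and -3.92 in WT at 0.1, and to -2.24 in KO and -2.72 in WT at 5. At 2-fold the early KO change had 0 genes called lower, the late KO change 0 called higher, the late WT change 1 called higher, KO minus WT at 2–3 h 1 called higher, and at 4–5 h 3 called lower. Asking for an FPKM of 10 also in KO at 0–0.5 h, an alternative chosen after seeing the data, gave -3.28 for the late KO change, -3.66 for the late WT change and 1 gene called higher in the late WT change. Of 950 values of single genes under these settings, 890 kept their side of the threshold, 37 passed it anew, 23 no longer passed it and 0 changed direction. No paired analysis was possible because each collection has 1 table. With no replicate table, the spread between collections is unknown, and low values at 3–5 h have the widest intervals. The cause of these shifts was not tested.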
